A study of Arabidopsis thaliana with 9 samples.

Results

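The comparison described here set 3 arrays of er-2, a mutant of the receptor gene ERECTA (ER), against 3 arrays of the wild type (WT). These were 6 of the 9 arrays of a series on Arabidopsis thaliana. The other 3 arrays came from epfl4 epfl6, a double mutant in a pair of peptide genes whose products are ligands of ER, and their values are given beside the results. The arrays were chosen by their titles, and every sample was labelled a biological replicate. Each array was an Affymetrix chip with 1 colour, hybridised with labelled cRNA made from 100 ng of total RNA. All 3 genotypes were in the Col-0 background per the labels, and all were sampled 33 days after germination from untreated plants kept on soil in continuous light. The tissue was the developing tip of the inflorescence, described in a second label as flower buds. The receptor mutant was represented by 1 allele, er-2, which the study's design text calls allelic to er-106. How often the line had been backcrossed, how many plants made up a sample and how buds were staged are not given in the sources used here. All p-values reflect only how these samples vary, and the small number of arrays limits their precision.

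ER is a receptor-like kinase with leucine-rich repeats in the plasma membrane. It perceives secreted peptides of the EPF/EPFL family, acts together with its close homologues and with the co-receptor protein TMM, and signals through a cascade of MAP kinases. It is known for promoting elongation of the stem and pedicel and for restricting stomatal formation in the epidermis, and plants without it have compact inflorescences with crowded buds. The comparison asked which transcripts differ in the inflorescence tip between this receptor mutant line and WT. As er-2 was the only receptor mutant line, effects of the receptor and of other differences of that line cannot be told apart.

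Of 22810 probe sets on the array, 64 were Affymetrix controls and 22746 were tested. The platform annotation gave 1 gene for 13513 of them, of which 1580 had a descriptive symbol and 11933 only a locus tag. Genes from AT1G01010 to AT1G33700, the upper part of chromosome 1, accounted for 1579 probe sets, and the rest of the nuclear genome for 11836. They are given apart below, because that stretch stood out in earlier results of these same data, from which its lower bound was also set. Counts inside and outside it are therefore a description, with no test. No named probe set measured ER itself, so its transcript gave no check of the genotype label.

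Arrays of er-2 correlated with each other at r = 0.9945 to 0.9971 across probe sets, WT arrays with each other at 0.9960 to 0.9969, and er-2 arrays with WT arrays at 0.9874 to 0.9891. Of 15 marker genes of inflorescences and flower buds, 2 had a named probe set. The floral regulator gene AGL24 averaged a log2 signal of 6.62 in er-2 and 6.30 in WT, and UFO, which acts with the floral identity gene LEAFY, averaged 3.61 in er-2 and 3.67 in WT. The UFO signals were near the lower quartile of the signals, 3.25 to 3.33 over the arrays, so they say little about the tissue. Of the markers listed for this tissue only these could be checked, and none of the xylem, root and seed markers had a named probe set. As a measure of RNA and labelling quality, control probe sets for actin, GAPDH and ubiquitin were brighter at the transcript's 3′ end than at its 5′ end, by a mean of 2.13 ± 0.0810 in er-2 and 2.45 ± 0.138 in WT on the log2 scale (SD, n = 3 each). The genotypes did not overlap in it (exact permutation test, two-sided p = 0.1, the smallest that 3 arrays against 3 can give). The 25S ribosomal RNA control averaged 11.84 ± 0.105 in er-2 and 11.84 ± 0.0274 in WT, and the 5S control 5.86 ± 0.748 in er-2 and 6.32 ± 0.226 in WT (SD, n = 3 each). Because the 3′ to 5′ difference ran along with the genotype, calls made with it as a covariate are given beside the gene lists below. These lists were chosen with earlier results of these data known, so the shares called on them are a description, with no test. The share set beside them also takes in dim probe sets, which were seldom called.

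Between er-2 and WT, 4722 of all probe sets tested (20.8%) passed an adjusted p under 0.05 (limma on log2 values, Benjamini-Hochberg over 22746 probe sets), 2673 higher (11.8%) and 2049 lower (9.01%). The 3 er-2 arrays lay entirely above or below the 3 WT arrays for 36.1% of probe sets. Genes named below by the size of their change were taken from called genes without overlap. Their lack of overlap thus follows from that rule. Most called differences were small, with a median size of 0.40 on the log2 scale, and 328 (1.44%) were at least 2-fold, 162 higher (0.712%) and 166 lower (0.73%). Of probe sets with 1 gene 18.1% were called, 10.5% higher and 7.63% lower, and 1.2% by at least 2-fold. On the upper part of chromosome 1, calls fell on 393 of 1579 probe sets (24.9%), 203 higher (12.9%) and 190 lower (12%), and 49 (3.1%) differed by at least 2-fold. The arrays of the genotypes lay apart for 40.0% of them. Elsewhere in the nuclear genome 2035 of 11836 were called (17.2%), 1196 higher (10.1%) and 839 lower (7.09%), 113 (0.955%) differed by at least 2-fold, and the arrays lay apart for 31.9%. With the 3′ to 5′ difference as a covariate the calls numbered 648 in all, 69 on the upper part of chromosome 1 and 264 elsewhere. The changes of at least 2-fold then numbered 41 and 105, not all of them the same probe sets. Of the 49 and 113 called without the covariate, 35 (71.4%) and 66 (58.4%) were still called with it. The median standard error grew to 0.153 with the covariate, against 0.0821 without it.

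**Figure D1:**
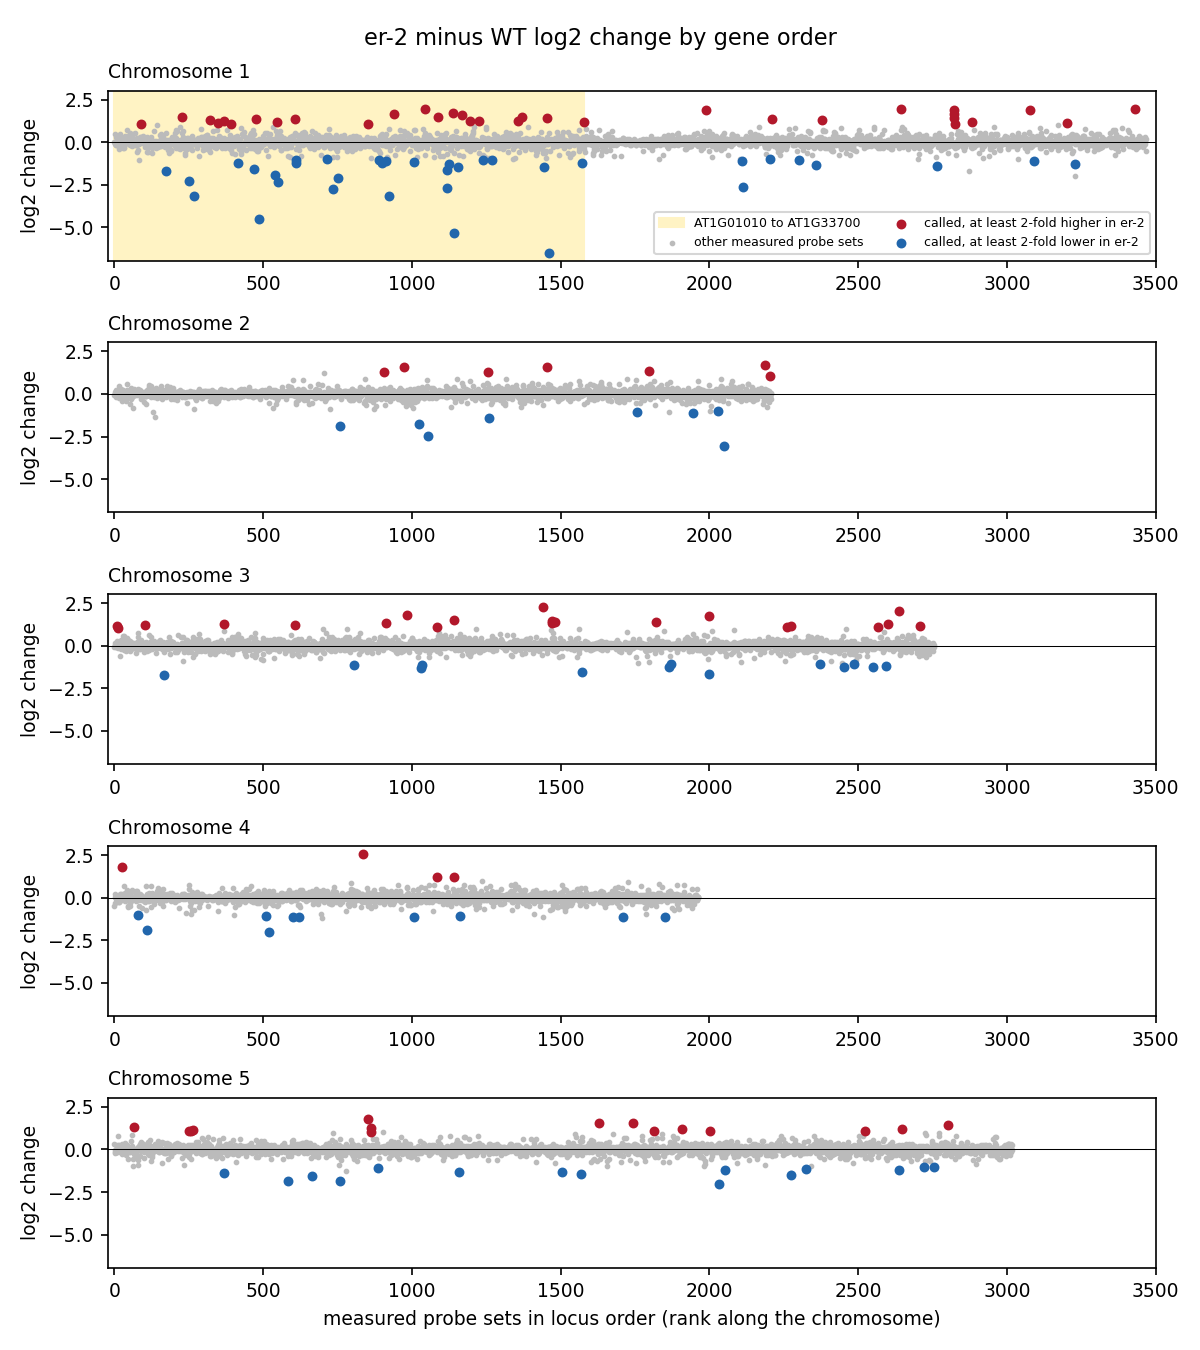
Each panel plots the er-2 minus WT log2 change (y axis) of the probe sets of 1 chromosome in locus order (x axis), with called changes of at least 2-fold in red where er-2 was higher and in blue where it was lower. The shaded stretch from AT1G01010 to AT1G33700 holds 49 of them and all but 1 of the falls of 8-fold or more, while the changes elsewhere are scattered over the 5 chromosomes.

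Among probe sets with 1 gene outside the upper part of chromosome 1, the largest rise belonged to a gene of the expansin superfamily. Some proteins of this superfamily loosen cell walls. The expansin-like gene EXLB1 (AT4G17030) had log2 signals of 6.58, 6.18 and 6.41 in er-2, against 3.89, 3.79 and 3.74 in WT. The genotypes were far apart, with every er-2 array well above every WT array, and EXLB1 rose by 2.58 ± 0.101 (SE; limma adjusted p = 4.01e-07). The expansin gene EXPA9 (AT5G02260) measured 5.87, 5.92 and 5.78 in er-2, against 4.63, 4.71 and 4.24 in WT, again without overlap, and rose by 1.33 ± 0.114 (adjusted p = 6.35e-05). The list of expansin and xyloglucan genes had 28 measured members, of which 5 were called higher and 4 lower (32.1% called, against 18.1% of all probe sets with 1 gene), with a median log2 change of 0.05 against 0.02 over those probe sets. Higher were also the expansin genes EXPA16 by 0.59 and EXPA8 by 0.55 and XTH32 by 0.72, the last of a family that cuts and rejoins xyloglucan. Lower were the expansin-like genes EXLA1 and EXLA2 and the xyloglucan enzyme genes XTH16 and EXGT-A3. EXLA1 (AT3G45970) varied widely within both genotypes, at 5.44, 5.86 and 6.38 in er-2, against 6.83, 7.39 and 7.13 in WT, and fell by 1.22 ± 0.251 (adjusted p = 0.00734). EXLA2 (AT4G38400) was steadier, at 6.63, 6.7 and 6.87 in er-2, against 7.34, 7.24 and 7.48 in WT, and fell by 0.62 ± 0.0839 (adjusted p = 0.000769). The list therefore held changes of both signs, and its 2 largest changes were rises. With the covariate 3 of the 5 rises (EXLB1, EXPA9 and XTH32) and none of the 4 falls were called. Single arrays decided 2 of the smaller calls. Leaving out er-2 replicate 1, er-2 replicate 2 or WT replicate 3 ended the call of EXPA8 (adjusted p up to 0.06). Leaving out er-2 replicate 1, er-2 replicate 3 or any WT array ended that of EXGT-A3 (adjusted p up to 0.155).

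Another wall gene was among the largest falls. ATPMEPCRB (AT4G02330), which encodes the pectin methylesterase PME41, an enzyme that removes methyl groups from wall pectin, had signals of 4.86, 4.56 and 5.4 in er-2, against 6.87, 6.75 and 6.89 in WT. All er-2 arrays were below all WT arrays, and the gene fell by 1.9 ± 0.188 (adjusted p = 0.000143). The subtilase gene SBT5.4 (AT5G59810), of a family of secreted proteases, measured 3.98, 4.74 and 3.84 in er-2, against 5.33, 5.61 and 5.15 in WT, and fell by 1.18 ± 0.22 (adjusted p = 0.00462). The microtubule-associated SPIRAL1-like gene SP1L5 (AT4G23496) measured 4.93, 5.28 and 5.13 in er-2, against 3.93, 3.53 and 4.2 in WT, and rose by 1.23 ± 0.152 (adjusted p = 0.000501). None of these 3 genes overlapped between er-2 and WT, which the rule that named them required. With the covariate SBT5.4 and SP1L5 were called, and ATPMEPCRB was not (adjusted p = 0.0583).

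Genes of sugar transport, starch and nitrogen changed in both directions. SWEET11 (AT3G48740), which encodes a sucrose exporter of phloem parenchyma, had signals of 7.62, 8.01 and 7.4 in er-2, against 5.79, 6.06 and 5.93 in WT, and rose by 1.75 ± 0.139 (adjusted p = 3.94e-05). QQS (AT3G30720), an orphan gene with an effect on starch content, measured 8.47, 9.05 and 8.84 in er-2, against 10.43, 10.20 and 10.31 in WT, and fell by 1.53 ± 0.139 (adjusted p = 8.6e-05). The epfl4 epfl6 arrays lay still lower for QQS, at 5.87, 6.03 and 5.71, so that er-2 stood between the other genotypes without touching either. ASPGB1 (AT3G16150), an asparaginase gene, measured 6.71, 6.63 and 6.83 in er-2, against 7.98, 7.88 and 7.75 in WT, and fell by 1.15 ± 0.0773 (adjusted p = 1.31e-05). All 4 measured members of the sugar, starch and nitrogen list were called, beside 18.1% of all probe sets with 1 gene. They were QQS, ASPGB1 and APL4 (log2 change −0.66), lower, and APL3 (0.36), higher. APL3 and APL4 both encode large subunits of ADP-glucose pyrophosphorylase, which makes the sugar nucleotide for starch. The APL3 call ended when er-2 replicate 1, er-2 replicate 3, WT replicate 1 or WT replicate 2 was left out (adjusted p up to 0.0584), and 2 of the 3 falls but not the rise were called with the covariate. On the phloem, procambium and cambium list 2 of 8 members were called, a share near the 18.1% over all probe sets with 1 gene. SWEET11 was the higher one, and CLE44 (AT4G13195), a source of the peptide that phloem sends to the procambium, was the lower one. CLE44 had signals of 5.78, 5.26 and 5.58 in er-2, against 6.71, 6.61 and 6.64 in WT, and fell by 1.12 ± 0.116 (adjusted p = 0.000188), a call lost with the covariate (adjusted p = 0.052). The summed linear signal of the 4 measured of 14 phloem markers ran from 616 to 671 in er-2 and from 490 to 519 in WT, with SWEET11 and CLE44 among the 4. In bulk samples a changed share of cells of a type and a changed amount of RNA per cell cannot be told apart, here and for the guard cell and tapetum genes below.

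Stomatal genes late in the lineage were higher in er-2. FMA (FAMA, AT3G24140), a transcription factor gene that drives the last step to guard cells, had signals of 6.38, 6.53 and 6.47 in er-2, against 5.41, 5.39 and 5.63 in WT, and rose by 0.98 ± 0.0806 (adjusted p = 4.76e-05). For guard cell ion transport, CHX20 (AT3G53720), a gene for a cation exchanger, measured 6.41, 6.28 and 6.29 in er-2, against 4.94, 5.21 and 5.44 in WT, and rose by 1.13 ± 0.112 (adjusted p = 0.000148). Neither overlapped with WT, and both stayed called with the covariate. For both genes the epfl4 epfl6 arrays overlapped with er-2. SPCH, which starts the lineage, had a log2 change of 0.23 (adjusted p = 0.0696), and MUTE, which acts between SPCH and FAMA, had one of 0.08 (adjusted p = 0.606). STOMAGEN (AT4G12970), a peptide of the EPFL family that promotes stomata and competes with other ligands at ER, was the only peptide or receptor of the ER pathway list with a named probe set. It measured 8.32, 8.28 and 8.19 in er-2, against 8.02, 8.12 and 8.05 in WT, and rose by 0.2 ± 0.0601 (adjusted p = 0.0398), a call lost under 7 of 13 alternative settings and with the covariate. PIFI (AT3G15840), a nuclear gene for a chloroplast protein that stood on the pathway list by error, rose by 0.47, a call lost without er-2 replicate 1 or WT replicate 1 (adjusted p up to 0.0675) and with the covariate (adjusted p = 0.732). In all, 3 of the 5 measured stomatal genes were called higher and none lower (60% called, against 18.1% of all probe sets with 1 gene), with a median log2 change of 0.23. The 2 measured of 10 guard cell markers were CHX20 and FMA themselves, and their summed linear signal ran from 167 to 170 in er-2 and from 73.3 to 92.7 in WT.

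Nuclear genes of photosynthesis were higher together, by small amounts. Of 11 measured members 10 were called higher and none lower (90.9% called, against 18.1% of all probe sets with 1 gene), with a median log2 change of 0.40. PORB, an enzyme gene of chlorophyll synthesis, measured 10.06, 9.88 and 9.87 in er-2, against 9.02, 9.5 and 9.28 in WT, and rose by 0.67 ± 0.113 (adjusted p = 0.00264). RCA, the gene for Rubisco activase, measured 12.23, 12.23 and 12.04 in er-2, against 11.73, 11.65 and 11.63 in WT, and rose by 0.49 ± 0.0759 (adjusted p = 0.00159). In both genes all er-2 arrays were above all WT arrays. The antenna gene LHCB4.2 rose by 0.54, PRK, for the Calvin cycle enzyme phosphoribulokinase, by 0.58, and the photosystem II gene PSBY by 0.49. PSBW, the exception, had a log2 change of 0.18 (adjusted p = 0.109). PRK lies on the upper part of chromosome 1 and the other 9 called genes outside it. NdhL (AT1G70760), a nuclear gene for a subunit of the chloroplast NADH dehydrogenase-like complex that was not on the list, measured 7.83, 7.78 and 7.61 in er-2, against 6.84, 6.98 and 6.82 in WT, and rose by 0.86 ± 0.0779 (adjusted p = 8.1e-05). Of the 69 probe sets for genes of the chloroplast genome, 15 were called, which at 21.7% was near the 18.1% of all probe sets with 1 gene. All 15 were higher, among them ndhA by 0.62, psbE by 0.61 and psbA by 0.44, and the median over the 69 was 0.13. Of these 15 calls 8 were lost under some alternative other than the covariate, and 7, among them the 3 just named, were not. With the covariate none of the 10 nuclear and none of the 15 chloroplast genes were called, while the medians were 0.35 and 0.32.

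**Figure D2:**
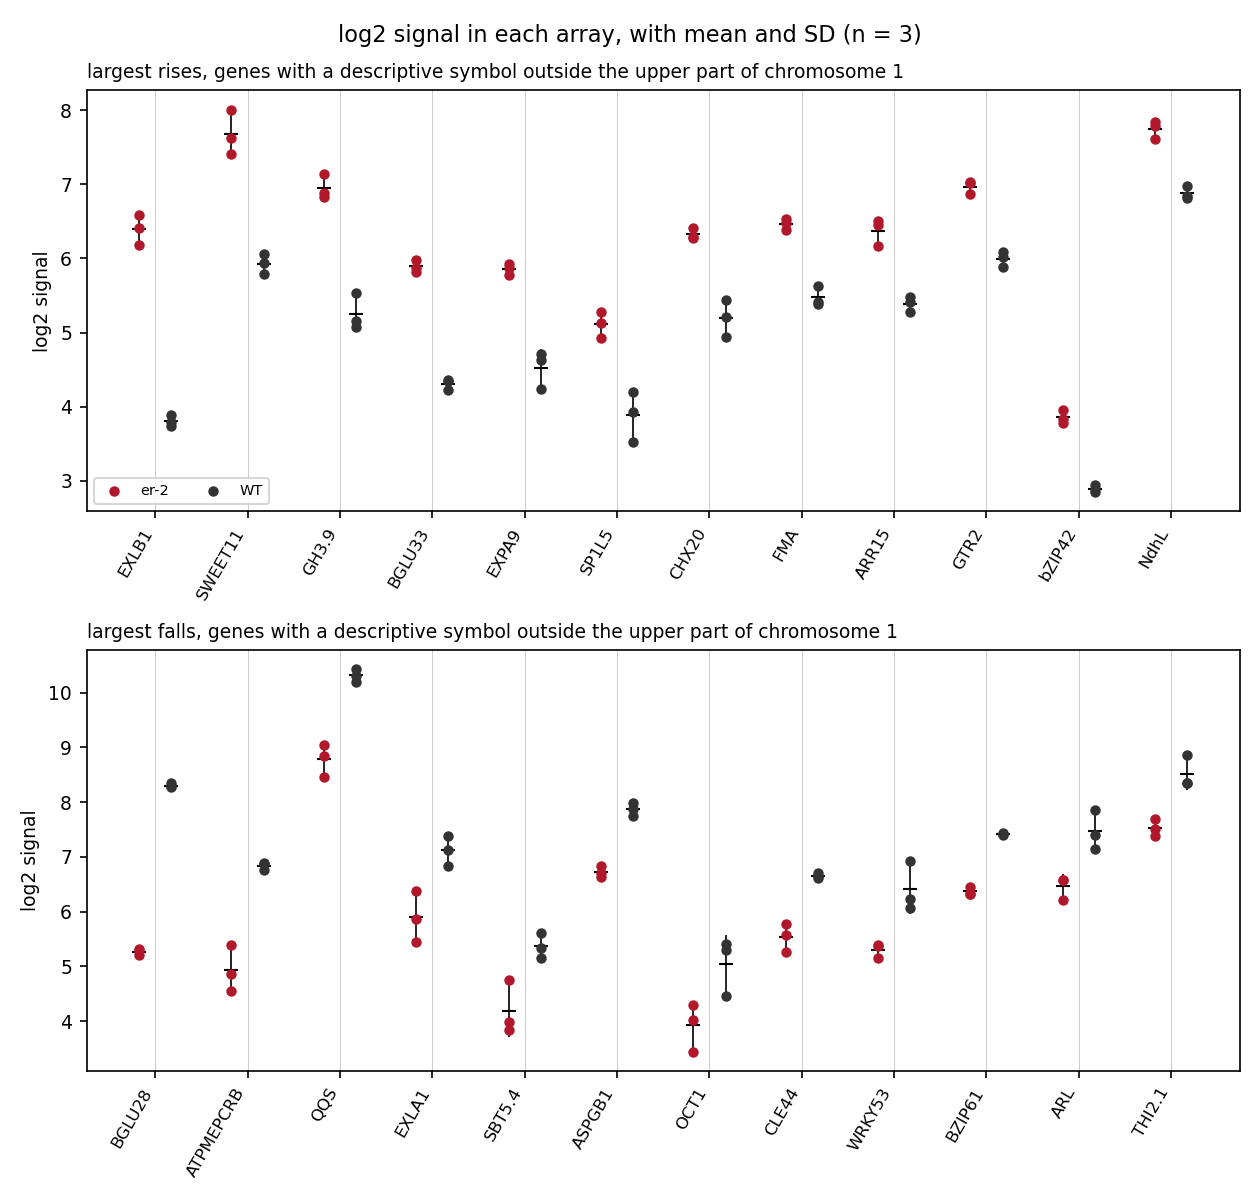
Points give the log2 signal (y axis) of each er-2 array in red and each WT array in black, with mean and SD (n = 3), for the 12 largest rises and the 12 largest falls among genes with a descriptive symbol outside the upper part of chromosome 1. The red and black points do not overlap for any of the 24 genes, which the rule that chose them required.

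Among probe sets with 1 gene, β-glucosidase genes gave the largest fall outside the upper part of chromosome 1 and one of the larger rises. BGLU28 (AT2G44460) had signals of 5.31, 5.21 and 5.27 in er-2, against 8.34, 8.27 and 8.29 in WT. Replicates were close together and the genotypes far apart, and BGLU28 fell by 3.04 ± 0.0555 (adjusted p = 9.91e-10), to an 8.21-fold lower signal. The epfl4 epfl6 arrays measured 6.85, 6.87 and 6.9, between the other genotypes. Its neighbour on the chromosome, BGLU15 (AT2G44450), fell by 0.41, and BGLU29 (AT2G44470) had a log2 change of −0.04 at a dim signal. BGLU33 (AT2G32860) went the other way, with 5.87, 5.98 and 5.82 in er-2, against 4.34, 4.36 and 4.22 in WT, and rose by 1.58 ± 0.109 (adjusted p = 1.5e-05). Its epfl4 epfl6 arrays, at 4.46, 4.04 and 4.44, overlapped with WT, and the er-2 minus epfl4 epfl6 difference was 1.58 (adjusted p = 2.82e-05). GTR2 (AT5G62680), a transporter of glucosinolates, the sulfur-rich defence compounds that related enzymes break down, measured 7.02, 7.02 and 6.86 in er-2, against 6.02, 5.88 and 6.09 in WT, and rose by 0.97 ± 0.0935 (adjusted p = 0.000123). Its homologue GTR1 had a log2 change of −0.24 (adjusted p = 0.0936). Of the 28 measured genes of glucosinolates and β-glucosidases, 4 were called higher and 5 lower (32.1% called, against 18.1%), with a median of −0.02, and 2 and 2 were called with the covariate. The call of BGLU43 was lost under 5 of 12 alternative settings, that of BGLU41 under 4 of 13 and that of UGT74B1 under 2 of 13.

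Genes of defence and of the hormones jasmonate and salicylate were lower where they were called. Of 11 measured members 6 were called lower and none higher (54.5% called, against 18.1%), with a median log2 change of −0.48. ECS1 and JMT of these lie on the upper part of chromosome 1 and are described with it. WRKY53 (AT4G23810), a transcription factor gene of senescence and defence, measured 5.38, 5.16 and 5.38 in er-2, against 6.23, 6.07 and 6.92 in WT. The er-2 arrays were below all WT arrays, of which the last stood apart upwards, and WRKY53 fell by 1.1 ± 0.185 (adjusted p = 0.00256). THI2.1 (AT1G72260), the gene for an antimicrobial thionin, measured 7.69, 7.5 and 7.39 in er-2, against 8.34, 8.86 and 8.36 in WT, and fell by 0.99 ± 0.142 (adjusted p = 0.00107). EFR, the receptor gene for bacterial elongation factor Tu, fell by 0.58, and SAG101, whose product works with EDS1 in resistance signalling, fell by 0.48. The defensin genes PDF1.2 and PDF1.4 had log2 changes of −0.01 (adjusted p = 0.944) and 0.16 (adjusted p = 0.511). All 6 calls held under each of 13 alternative settings, and 3 of them, ECS1, JMT and THI2.1, held with the covariate.

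Auxin genes changed in both directions. GH3 enzymes conjugate auxin to amino acids, and GH3.9 (AT2G47750) measured 6.89, 7.13 and 6.83 in er-2, against 5.15, 5.08 and 5.53 in WT, and rose by 1.7 ± 0.131 (adjusted p = 3.24e-05). WES1 (AT4G27260), of the same family, measured 7.79, 7.95 and 7.69 in er-2, against 7.03, 7.13 and 7.06 in WT, and rose by 0.74 ± 0.0821 (adjusted p = 0.000274). GH3.3, also of this family, had signals of 7.47, 8.05 and 7.49 in er-2, against 8.26, 8.75 and 8.05 in WT, and fell by 0.69 ± 0.186 (adjusted p = 0.0273), a call lost under 6 of 13 alternative settings. HAT2 (AT5G47370), an auxin-induced homeobox gene, measured 7.07, 7.01 and 6.8 in er-2, against 7.94, 7.72 and 7.85 in WT, and fell by 0.88 ± 0.0851 (adjusted p = 0.000127). Also lower were YUC6, for an enzyme of auxin synthesis, by 0.35 and the kinase gene WAG2 by 0.34, calls lost without some single arrays (adjusted p up to 0.0964 for YUC6 and 0.0697 for WAG2). IAA33, of the family of auxin-regulated repressors, rose by 0.35 at a dim signal, a call lost under 7 of 12 alternative settings. Of 18 measured auxin genes 3 were called higher and 4 lower (38.9% called, against 18.1%), with a median of −0.07, and 3 of the 7 were called with the covariate.

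Single members of other hormone lists were called. The type-A response regulator gene ARR15 (AT1G74890), which is induced by cytokinin and damps its signalling, measured 6.17, 6.45 and 6.5 in er-2, against 5.27, 5.42 and 5.48 in WT. Its epfl4 epfl6 arrays, at 5.41, 5.5 and 5.53, lay with WT. ARR15 rose by 0.98 ± 0.094 (adjusted p = 0.000121) and differed by 0.89 from epfl4 epfl6 (adjusted p = 0.000325), and the other 4 measured cytokinin genes were not called. The gibberellin receptor gene GID1A (AT3G05120) measured 7.32, 7.18 and 7.17 in er-2, against 6.48, 6.77 and 6.56 in WT, and rose by 0.62 ± 0.083 (adjusted p = 0.000761), 1 of 6 measured gibberellin genes. BRL1, of the brassinosteroid receptor family, was the only brassinosteroid gene measured and rose by 0.37 at a dim signal. With 1 call each among 5 and 6 members, the cytokinin and gibberellin lists were near the 18.1% over all probe sets with 1 gene. With the covariate ARR15 was called, while GID1A (adjusted p = 0.175) and BRL1 (adjusted p = 0.405) were not.

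Cell division genes were mostly lower, by small amounts. Of 6 measured members 4 were called lower and 1 higher (83.3% called, against 18.1%), with a median of −0.24. PRL (AT4G02060), which licenses DNA replication, measured 7.85, 7.75 and 7.98 in er-2, against 8.43, 8.48 and 8.43 in WT, without overlap, and fell by 0.59 ± 0.0789 (adjusted p = 0.000773). ICU2, for the catalytic subunit of a DNA polymerase, fell by 0.40, and the mitotic Aurora kinase genes AUR1 and AUR2 fell by 0.27 and 0.20. SIM, whose product inhibits cyclin-dependent kinases and promotes endoreduplication, rose by 0.26. Only the call of PRL held under each of 13 alternative settings; the other 4 calls were lost under 4 to 8 of them. None was called with the covariate, and the change of AUR1 was then 0.0182. The organ growth gene ARL (ARGOS-like, AT2G44080) measured 6.59, 6.2 and 6.59 in er-2, against 7.4, 7.14 and 7.86 in WT, and fell by 1.01 ± 0.173 (adjusted p = 0.00291). Of 10 measured genes of meristem, polarity and organ size it was called lower with PHV (20% called, near the 18.1% over all), a leaf polarity gene on the upper part of chromosome 1 (−0.31), and neither was called with the covariate. The median of these 10 was 0.12, opposite in sign to both calls, and −0.19 with the covariate. Both measured genes of xylem and secondary wall were called, GUT2, for an enzyme of xylan synthesis on the upper part of chromosome 1, higher by 0.46 and PHV lower, and both calls were lost under some alternatives.

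**Figure D3:**
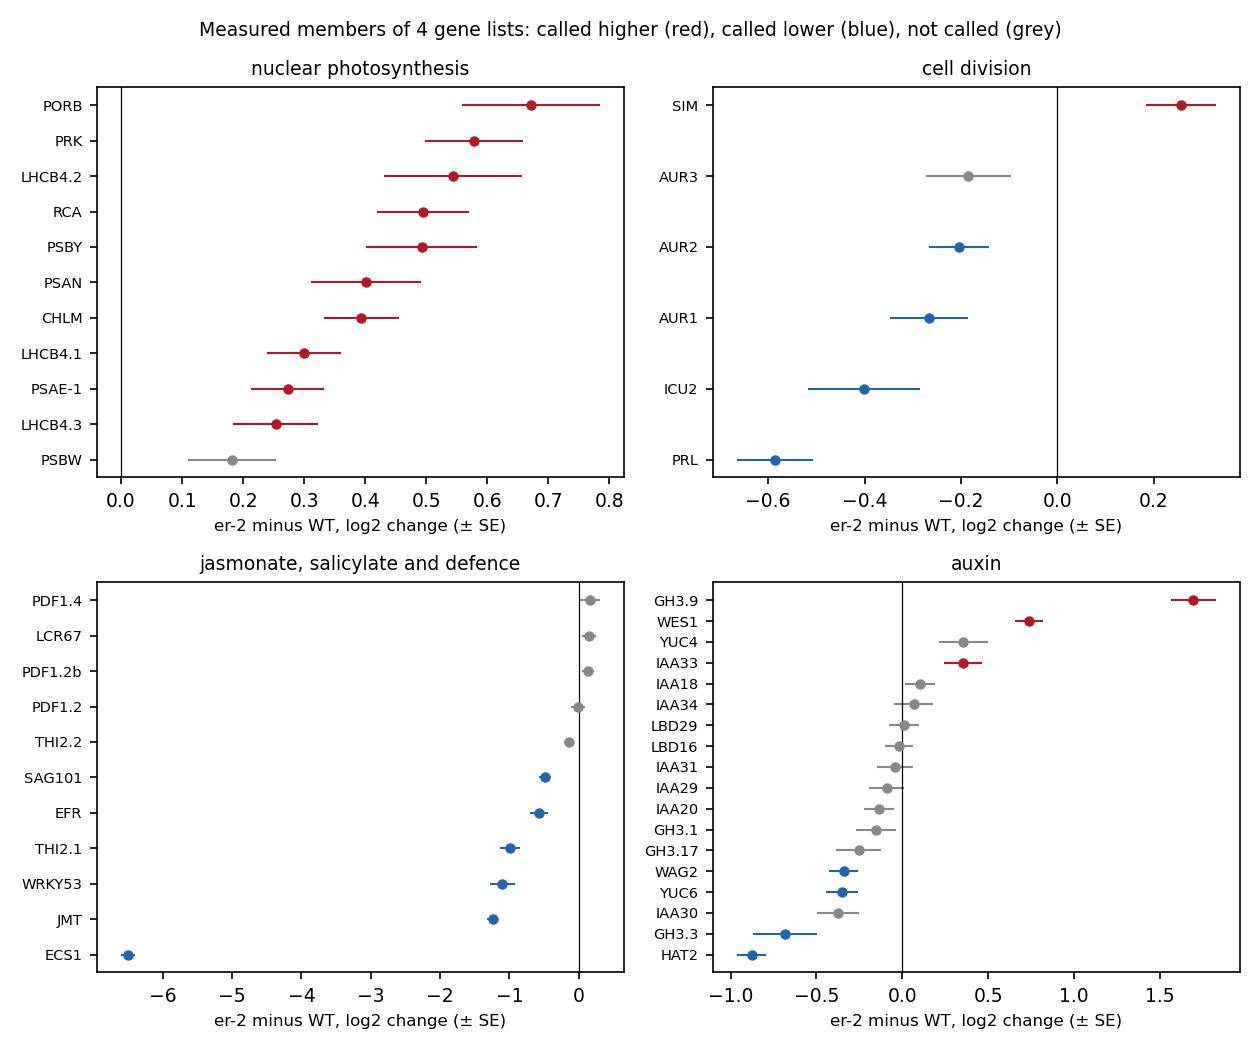
Each point is the er-2 minus WT log2 change (x axis) of 1 measured gene with its standard error, for 4 gene lists, in red where called higher, in blue where called lower and in grey where not called. All 11 photosynthesis genes lie to the right of 0, and 10 of them are called. Of 11 defence genes the 6 called ones lie to the left, with ECS1 far out at −6.5. The auxin and cell division genes lie on both sides.

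Genes of anther and tapetum were lower where they were called. AMS (AT2G16910), a regulator gene of the tapetum, the cell layer that feeds the pollen, measured 8.27, 8.2 and 8.29 in er-2, against 8.64, 8.68 and 8.5 in WT, and fell by 0.36 ± 0.0764 (adjusted p = 0.00928). EMS1, for a receptor kinase that sets tapetum fate, fell by 0.37. SHT (AT2G19070), for an enzyme of pollen coat phenolamides, had signals of 5.61, 7.67 and 5.47 in er-2, against 8.55, 8.56 and 7.35 in WT, with an er-2 array above the lowest WT array, and fell by 1.9 ± 0.538 (adjusted p = 0.0326). The call of EMS1 was lost under 3 and that of SHT under 6 of 13 alternative settings. ATA27, another tapetum gene, averaged 6.97 in er-2 and 8.95 in WT (adjusted p = 0.0877). Of 9 measured genes of the list 3 were called lower and none higher (33.3% called, against 18.1%), and none was called with the covariate. The summed linear signal of the 4 measured of 12 tapetum markers ran from 582 to 1063 in er-2 and from 1059 to 1770 in WT, which overlapped slightly. For 3 measured of 9 pollen markers it ran from 32.8 to 36.8 in er-2 and from 32.0 to 39.1 in WT. These pollen probe sets were dim in both genotypes, so their overlap says little about pollen. Whether the buds were of the same stage was not tested.

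The other lists gave few or scattered calls. Among 17 genes of stress, metals and detoxification 5 were called higher and 3 lower (47.1% called, against 18.1%), and 2 of the rises (GSTF4 and MT1C) and none of the falls were called with the covariate. Outside the upper part of chromosome 1 the glutathione transferase genes GSTU23 and GSTU20 rose by 0.71 and 0.27, GSTU27 fell by 0.64, the carnitine transporter gene OCT1 fell by 1.13 and the zinc transporter family gene ZIP9 fell by 0.34. The OCT1 call was lost without WT replicate 2 (adjusted p = 0.0502, against 0.0129 with all arrays), and that of ZIP9 under 6 of 13 alternative settings (adjusted p up to 0.121). Of 7 floral identity and flowering genes 2 MADS-box genes that promote flowering were called higher, AGL42 by 0.51 and AGL71 by 0.40 (28.6% called, against 18.1%). The AGL71 call was lost under 4 of 12 alternative settings (adjusted p up to 0.0724) and held with the covariate, with which AGL42 was not called (adjusted p = 0.226). Of 2 measured endodermis genes the SCARECROW-like gene AT5G41920 (SCL23) rose by 0.39, a call lost with the covariate (adjusted p = 0.299), and JKD had a log2 change of −0.33 (adjusted p = 0.085). Of 6 genes of clock, light and cold none was called, COR15A having the largest change, −0.52 (adjusted p = 0.167). The bZIP transcription factor genes BZIP61 (AT3G58120), which fell by 1.05 ± 0.0693 (adjusted p = 1.11e-05), and bZIP42 (AT3G30530), which rose by 0.96 ± 0.0729 (adjusted p = 2.87e-05), belonged to no list.

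Many of the largest changes outside the upper part of chromosome 1 were of genes that the annotation gave only a locus tag, so no role is given for them. The largest rises among these were AT3G28270 by 2.31, AT3G61210 by 2.05, AT1G64370 by 1.97 and AT1G80180 by 1.94. The neighbouring locus tags AT1G67860, AT1G67865 and AT1G67870 rose by 1.87, 1.65 and 1.42. AT5G18600 measured 7.65, 7.73 and 7.54 in er-2, against 5.8, 6.01 and 5.68 in WT, and rose by 1.81 ± 0.0919 (adjusted p = 2.58e-06), with epfl4 epfl6 arrays at 6.06, 6.18 and 6.2. The largest falls were AT1G51820 by 2.62, AT2G24600 by 2.44 and AT4G11190 by 2.04. AT4G11190 measured 3.67, 3.72 and 3.74 in er-2, against 5.77, 5.76 and 5.72 in WT, and its epfl4 epfl6 arrays, at 5.68, 5.78 and 5.53, lay with WT. The er-2 arrays of AT1G51820, at 2.57, 2.60 and 2.70, were under the lower quartile of the signals, which ran from 3.25 to 3.33 over the arrays, and the size of the change is a fitted value. The calls of AT3G48650, AT5G14980 and AT5G52750, with falls of 1.67, 1.59 and 1.52, were lost under some alternatives, with adjusted p up to 0.0815.

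On the upper part of chromosome 1 lay 5 of the 6 changes of 8-fold or more among probe sets with 1 gene, all of them falls. Of 49 called changes of at least 2-fold 21 were rises (1.33% of the 1579) and 28 falls (1.77%), 10 falls and no rise reached 4-fold, and 5 falls reached 8-fold. Among other nuclear genes 59 rises (0.498%) and 54 falls (0.456%) reached 2-fold, 3 rises and 5 falls reached 4-fold, and 1 fall, BGLU28, reached 8-fold. ECS1 (AT1G31580), a pathogen-inducible gene known from resistance to Xanthomonas, had signals of 4.42, 4.52 and 4.21 in er-2, against 10.99, 10.89 and 10.77 in WT. All er-2 arrays were dim where all WT arrays were bright, and ECS1 fell by 6.5 ± 0.1 (adjusted p = 3.69e-10), a 90.7-fold lower signal. Its epfl4 epfl6 arrays, at 10.57, 10.77 and 10.84, overlapped with WT. AT1G23960 measured 2.35, 2.73 and 2.46 in er-2, against 7.8, 7.91 and 7.86 in WT, with epfl4 epfl6 arrays at 7.89, 7.87 and 7.87. It fell by 5.34 ± 0.0902 (adjusted p = 6.2e-10), to er-2 signals under the lower quartile as well. AT1G11280 measured 4.52, 3.78 and 4.23 in er-2, against 8.6, 8.65 and 8.76 in WT, and fell by 4.49 ± 0.151 (adjusted p = 1.35e-07). AT1G06640 measured 5.54, 5.43 and 5.19 in er-2, against 8.43, 8.61 and 8.67 in WT, and fell by 3.18 ± 0.103 (adjusted p = 1.16e-07). Both were without overlap, and in both the epfl4 epfl6 arrays, at 7.95, 7.95 and 7.9 for AT1G11280 and 8.35, 8.56 and 8.42 for AT1G06640, lay far above er-2.

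A further 3 of the 10 largest falls there had steady replicates in all genotypes. AT1G16260 fell by 2.75 ± 0.0863 (adjusted p = 9.46e-08), AT1G12400 by 2.35 ± 0.0668 (adjusted p = 4.41e-08) and AT1G16705 by 2.08 ± 0.0912 (adjusted p = 9.23e-07), each with er-2 below both other genotypes. JMT (AT1G19640), which turns jasmonic acid into its methyl ester and was not among the 10, measured 5.71, 5.66 and 5.71 in er-2, against 7.02, 6.78 and 7.0 in WT, and fell by 1.24 ± 0.076 (adjusted p = 7.37e-06), with epfl4 epfl6 between at 6.4, 6.48 and 6.31. The remaining 3 of the 10 varied widely among WT arrays. AT1G20150 measured 4.71, 5.98 and 5.07 in er-2, against 8.35, 8.99 and 7.84 in WT, AT1G23570 measured 4.3, 4.3 and 3.96 in er-2, against 5.68, 7.65 and 7.24 in WT, and AT1G06260 measured 3.55, 3.55 and 3.153 in er-2, against 4.5, 6.68 and 5.94 in WT. In these 3 genes the epfl4 epfl6 arrays were low too, between 2.96 and 4.49. The er-2 minus epfl4 epfl6 differences were 1.36 for AT1G20150 (adjusted p = 0.0473), 0.86 for AT1G23570 (adjusted p = 0.166) and 0.28 for AT1G06260 (adjusted p = 0.706). With the covariate the falls against WT had adjusted p of 0.0387, 0.0653 and 0.0847.

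The rises there were smaller. AT1G22440 measured 5.3, 5.14 and 5.65 in er-2, against 3.55, 3.25 and 3.42 in WT, and rose by 1.96 ± 0.154 (adjusted p = 3.58e-05), with epfl4 epfl6 arrays at 3.08, 3.45 and 2.97, overlapping with WT. AT1G20490 measured 6.93, 6.71 and 6.9 in er-2, against 5.13, 5.4 and 5.05 in WT, and rose by 1.65 ± 0.0947 (adjusted p = 5.13e-06), again with epfl4 epfl6 near WT at 5.08, 5.12 and 5.15. MT1C (AT1G07610), a metallothionein gene, of small proteins that bind metals, measured 6.75, 6.87 and 6.58 in er-2, against 5.49, 5.48 and 5.3 in WT, and rose by 1.31 ± 0.116 (adjusted p = 7.44e-05). GSTF4 (AT1G02950), a glutathione transferase gene, measured 5.67, 5.42 and 5.4 in er-2, against 4.51, 4.1 and 4.67 in WT, and rose by 1.07 ± 0.142 (adjusted p = 0.000711). The serine carboxypeptidase-like gene scpl31 (AT1G11080) measured 7.58, 7.59 and 7.38 in er-2, against 6.33, 6.08 and 5.98 in WT, and rose by 1.38 ± 0.129 (adjusted p = 9.71e-05). AT1G24575 measured 7.61, 7.68 and 7.76 in er-2, against 6.24, 6.05 and 6.0 in WT, and rose by 1.59 ± 0.0751 (adjusted p = 1.61e-06). For scpl31 and AT1G24575 the epfl4 epfl6 arrays overlapped with er-2, at 7.22 to 7.69 and at 7.66 to 7.74. The 10 largest rises there were between 1.34 and 1.96. Also on this stretch BGLU40 fell by 0.66, UGT74B1, for an enzyme of glucosinolate synthesis, by 0.32, and GSTU18 rose by 0.57.

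**Figure D4:**
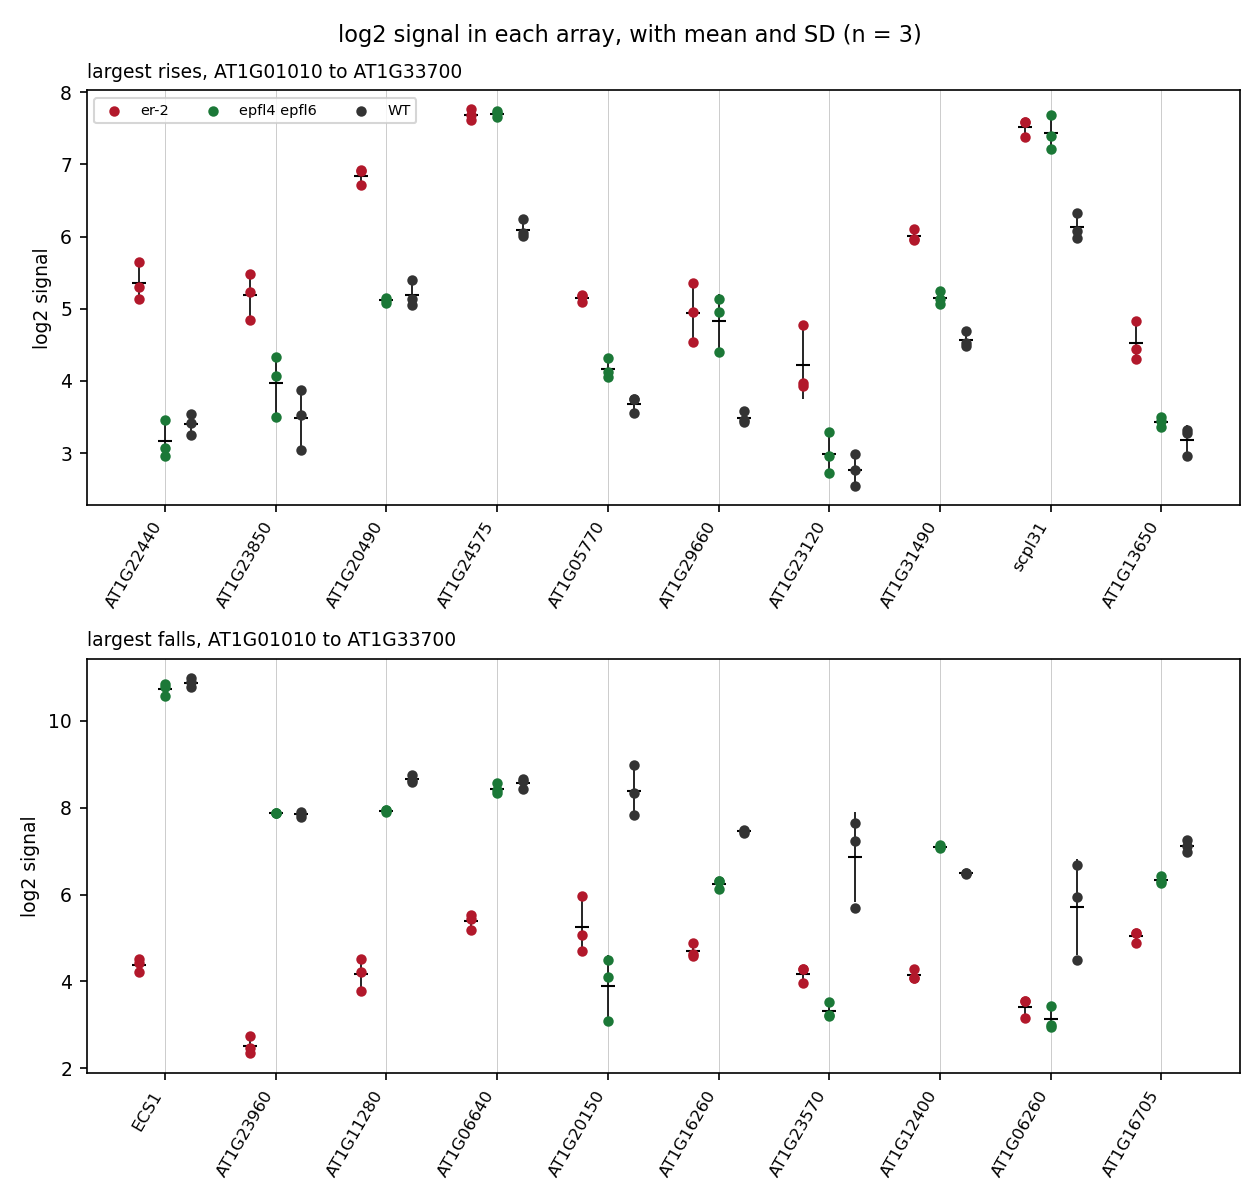
Points give the log2 signal (y axis) of each er-2 array in red, each epfl4 epfl6 array in green and each WT array in black, with mean and SD (n = 3), for the 10 largest rises and the 10 largest falls from AT1G01010 to AT1G33700. For ECS1, AT1G23960, AT1G11280 and AT1G06640 the red points lie far below green and black, while for AT1G20150, AT1G23570 and AT1G06260 red and green are both low.

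The changes were spread along the stretch rather than gathered at 1 place. In successive runs of 100 measured probe sets from the top of chromosome 1, each of the first 16 runs, the last of which reaches past AT1G33700, held at least 1 called change of at least 2-fold, and 19 to 33 of the 100 were called. The run from AT1G23280 to AT1G26100 held the most, with 33 called and 8 of at least 2-fold. The next 3 runs, from AT1G33970 to AT1G47640, held none of at least 2-fold, with 18, 5 and 9 called. The last change of at least 2-fold inside the bound was AT1G33700 (1.17) and the first outside it AT1G49310 (1.87). Between these genes lay 411 probe sets, of which 49 were called (11.9%). Because the bound was set on earlier results of these data, the gap after it is only a description. Runs with few calls also lay on other chromosomes. The run from AT2G04940 to AT2G07200 held 1 call, and those from AT3G31540 to AT3G42900 and from AT5G28680 to AT5G35450 held 3 each. Shares called on the other parts were 18.1% on the rest of chromosome 1, 14.4% on chromosome 2, 18.2% on chromosome 3, 16.3% on chromosome 4 and 18.3% on chromosome 5.

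Signal level bears on these shares, since dim probe sets were seldom called. The median WT signal was 5.79 on the upper part of chromosome 1 and 5.34 elsewhere. In quartiles of the mean signal over the 9 arrays, from dim to bright, 3.72%, 26.0%, 30.2% and 33.1% of those on the upper part of chromosome 1 were called. Elsewhere the shares were 1.99%, 15.9%, 24.3% and 27.2%. Called changes of at least 2-fold made up 0.338%, 5.06%, 4.81% and 1.22% there, and 0%, 1.60%, 1.73% and 0.544% elsewhere. The upper part of chromosome 1 had the higher share within each quartile for both measures. This is a description, because its bound was set on earlier results of these data. In the dimmest quartile its share of 2-fold changes rests on 1 probe set of 296. Of called changes 58.5% on the upper part of chromosome 1 and 69.6% elsewhere were under 0.5 on the log2 scale. With the covariate 4.37% were called there and 2.23% elsewhere.

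**Figure D5:**
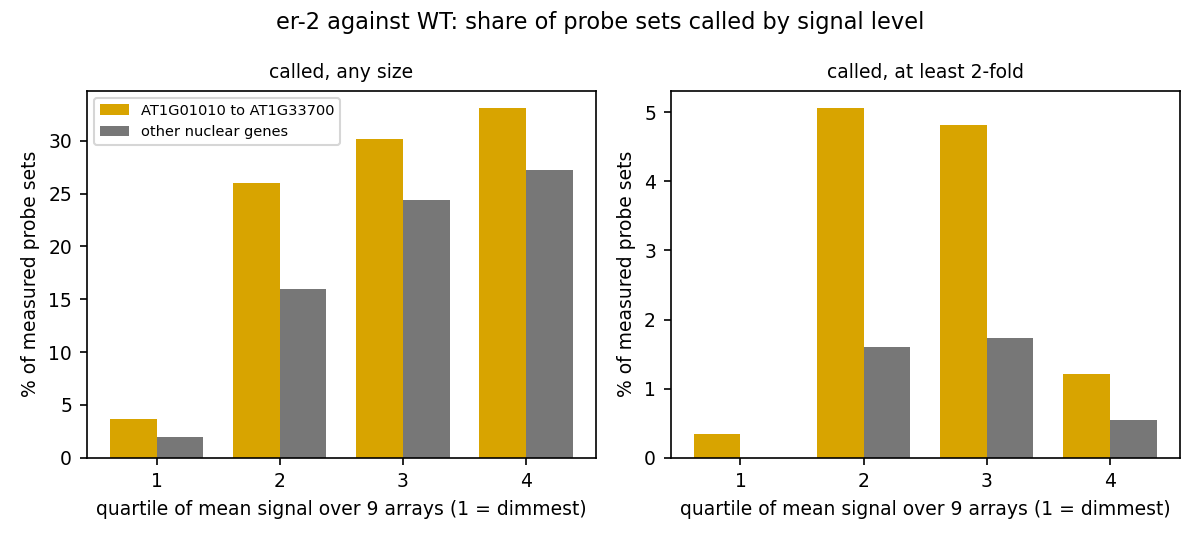
Bars give the percentage (y axis, from 0) of measured probe sets with a call between er-2 and WT at any size (left) and at least 2-fold (right), by quartile of the mean signal over 9 arrays (x axis), in yellow from AT1G01010 to AT1G33700 and in grey for other nuclear genes. The yellow bar is the taller in each quartile, and the 2-fold changes lie mostly in the 2 middle quartiles.

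The direct comparison of er-2 with epfl4 epfl6 shares its er-2 arrays with the comparison above, so its values are given beside and not as separate support. It called 2467 of the 13513 probe sets with 1 gene (18.3%). On the upper part of chromosome 1 395 of 1579 were called (25.0%), 38 of them at least 2-fold (2.41%), and elsewhere 2046 of 11836 (17.3%), 82 of them at least 2-fold (0.693%). The er-2 minus epfl4 epfl6 log2 differences were −6.35 for ECS1, −5.36 for AT1G23960, −3.76 for AT1G11280 and −3.06 for AT1G06640, beside −6.5, −5.34, −4.49 and −3.18 against WT. Outside that stretch they were 0.97 for EXLB1, 1.29 for SWEET11, −1.61 for BGLU28, −1.64 for ATPMEPCRB and −1.1 for THI2.1, all called. They were −0.09 for EXPA9, −0.02 for CHX20 and 0.04 for FMA, with standard errors of 0.114, 0.112 and 0.0806 and adjusted p from 0.622 to 0.926. The 3′ to 5′ difference of the control transcripts was 1.61, 1.72 and 1.67 in the epfl4 epfl6 arrays, below all er-2 arrays, and adjusting for it left 66 calls over all 22746 probe sets.

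The neighbourhood of ER itself, on chromosome 2, held few changes. Among the 100 measured probe sets nearest to the ER locus, from AT2G25409 to AT2G27360, 13 were called, 9 higher and 4 lower, which at 13.0% was near the 14.4% of chromosome 2. None reached 2-fold, the largest being AT2G26690 (0.89) and AT2G26190 (−0.76). Whether the er-2 line carries other sequence differences, on the upper part of chromosome 1 or elsewhere, was not tested.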

How the data were processed

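Log2 signal values of 22810 probe sets were taken as deposited. Per the submitters' processing notes the authors used RMA and limma, without versions, and no scanner files were used here. The Affymetrix controls were left out of the tests. Probe sets were matched to genes by the platform annotation, and symbols and locus tags were taken from RefSeq where it held the gene. The 9233 probe sets with none or several genes stayed unnamed.

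Samples were grouped by title. A linear model with 1 mean per genotype was fitted to all 9 arrays (6 residual degrees of freedom) with limma 3.58.1 in R 4.3.3 and tested on simulated data. Calls needed an adjusted p under 0.05, two-sided, with Benjamini-Hochberg over 22746 probe sets, and ± marks the model's standard error where SE is meant.

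The genes, gene lists and region were chosen with earlier results of these data known. Named were, among called genes without overlap between er-2 and WT, the 15 largest rises and falls outside the upper part of chromosome 1, the 12 largest there with a descriptive symbol, the 10 largest on it, and list members. AT1G67870, AT2G26690 and AT2G26190 were chosen after their values were seen.

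Alternatives were renormalization, centring on the median, a filter that removed the dimmest 30% of features, a variance trend, array weights, a replicate block, 6 arrays only, the 3′ to 5′ covariate and leaving out each array. Samples were not paired by replicate number in the main fit. Deviations from the genotype means correlated at −0.0129, 0.289 and 0.186 between same-numbered er-2 and WT arrays. Between differently numbered arrays they correlated at −0.279 to 0.0689. Whether same-numbered arrays shared a batch was not tested. Signals near background were not tested, because the deposited values carry no detection call.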

Additional observations from a re-analysis of the deposited data

How the results depend on the processing

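The counts of called probe sets, in all and on or outside the upper part of chromosome 1, stayed within 1.5 times their er-2 against WT values under 13 of the 14 alternatives run for them. The exception was the 3′ to 5′ covariate, with which 648 were called in all, 69 on the upper part of chromosome 1 and 264 elsewhere, and 66 in er-2 against epfl4 epfl6. The cause was not tested beyond the standard errors, which grew, and this covariate and the genotype overlap in what they can account for. With it AUR1 changed sign, to 0.0182 (adjusted p = 0.964). The changes of at least 2-fold numbered 45 to 53 on the upper part of chromosome 1 and 95 to 124 elsewhere without single arrays. Of the 49 and 113 found with all arrays, 2 and 21 lost the call under at least 1 alternative other than the covariate. Leaving out single arrays gave 3257 to 4069 calls in er-2 against WT, 3324 to 4598 in er-2 against epfl4 epfl6, 276 to 345 on the upper part of chromosome 1 and 1362 to 1750 elsewhere. With the replicate number as a block 4367 were called. Of 67 genes named by size 63 stayed called under each alternative run for them other than the covariate (13, or 12 for AT1G23120, AT1G51820 and bZIP42, which the filter on dim probe sets removed), 4 lost the call under at least 1 of them (AT3G48650, AT5G14980, AT5G52750 and OCT1), 47 were called with the covariate, and none changed sign. Rises made up 53.4% of calls after renormalization and 60.8% after median centring, against 56.6% as deposited. With 3 arrays a genotype, small changes of dim probe sets are the least certain.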

Other observations

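Gene families grouped by words in the RefSeq gene symbols and synonyms gave further calls in er-2 against WT. These calls are to be read beside 18.1% called over all probe sets with 1 gene. Of 15 glycosyl hydrolase genes of the endoglucanase family GH9, whose enzymes cut glucans of the wall, GH9C2 rose by 0.70, GH9B8 by 0.57 and GH9B5 by 0.48, and GH9B13 fell by 0.71. Of 43 genes of UDP-glycosyltransferases, which attach sugars to hormones and secondary compounds, 6 rose and 3 fell, UGT74B1 of the glucosinolate list included. Among the others were UGT85A5 (0.79), UGT85A4 (0.65), UGT78D3 (−0.60) and UGT78D1 (−0.39). Of 17 genes matched by the name SWEET, most of them sugar transporters, 3 rose, SWEET1 (0.29), SWEET2 (0.23) and SWEET11, which is described above. Of 44 probe sets for MADS-box genes 4, AGL42 and AGL71 of the flowering list included, rose and 1, AGL62, fell by 0.46. Of 60 probe sets for proteases 7, with scpl31 described above, rose and 5 fell, among them the serine carboxypeptidase-like genes scpl35 (0.68) and scpl29 (−0.51). The shares called in these families ran from 11.4% for MADS-box probe sets to 26.7% for GH9 genes and are not read as results about the families. The families of glutathione transferases (41.7% called), xyloglucan enzymes (33.3%) and expansins (31.6%) share genes with the lists above and are not described again.

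Probe sets that the annotation left without a gene held changes too. Of 8730 of them 2197 were called (25.2%, against 20.8% of all tested), 153 by at least 2-fold, 78 higher and 75 lower. Together with the probe sets of several genes, 1.8% were called and at least 2-fold, against 1.44% of all tested. Their median signal was 6.42, against 5.40 for probe sets with 1 gene, and dim probe sets were seldom called. The higher share is not read as a trait of those without a gene. The probe set 260116_at measured 5.53, 5.34 and 5.54 in er-2, against 2.27, 2.09 and 2.15 in WT, a log2 change of 3.3, and its er-2 minus epfl4 epfl6 difference was 3.36. The probe set 257220_at measured 5.44, 6.43 and 6.19 in er-2, against 2.69, 2.43 and 2.92 in WT, a change of 3.34. For both probe sets the WT arrays were under the lower quartile of the signals (3.25 to 3.33), and the size of the change is a fitted value. Of 503 probe sets with several genes 78 were called (15.5%), and 3 of them fell by 8-fold or more. The lowest, 245651_s_at, measured 4.49, 4.2 and 4.27 in er-2, against 10.2, 10.1 and 10.2 in WT, a change of −5.83. Probe sets of both kinds have no single gene to place them by, so they are in neither the counts for the upper part of chromosome 1 nor those for other nuclear genes.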
